A study of Homo sapiens with 24 samples.

Results

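The E2F family comprises the DNA-binding factors E2F1 to E2F8 and their dimerization partners TFDP1 and TFDP2, 10 genes that were chosen by name from the 25161 gene symbols of the table. Each member had exactly 1 of the 25575 rows. The family was followed in 2 human B-cell lymphoma lines, SU-DHL-4 (diffuse large B-cell lymphoma) and DG-75 (Burkitt lymphoma), both expanded in culture without added genetic changes named in the labels. Cells were exposed for 72 h to DMSO (the solvent control), to 1 µM entospletinib (Ento, an inhibitor of the B-cell receptor kinase SYK), to 0.01 µM AZD5153 (AZD, a bivalent inhibitor of BET bromodomain proteins), or to both at these doses (Ento+AZD). Each of the 8 groups held 3 samples that the submitters call biological triplicates, measured on 24 Clariom D arrays. A value on these arrays is a log2 level without a background estimate, so levels of different genes are not compared here, and a level or a sum over a fixed list of genes is read only between groups.

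E2F factors bind promoters of genes needed for DNA synthesis and cell division. E2F1, E2F2 and E2F3 are the activators, which hypophosphorylated RB1 holds inactive until cyclin-dependent kinases release them late in G1. E2F4 and E2F5 act mainly as repressors with the pocket proteins RBL1 and RBL2, and E2F6 represses together with Polycomb-type complexes without a pocket protein. E2F7 and E2F8 are atypical: they bind DNA without TFDP1 or TFDP2 and shut down E2F targets as S phase proceeds, and their own genes are E2F targets. In cycling B cells the activator and atypical genes peak around the G1/S transition. In bulk samples a smaller fraction of cells in S phase and less RNA per cycling cell cannot be told apart.

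E2F1 and E2F2 are themselves known to be transcribed under E2F control. Their promoters are printed because both hold an exact E2F motif close to the start, in RefSeq sequence of the build GRCh38.p14, 250 bases up to the transcription start, 5′ to 3′ along the gene's strand. Capitals mark the motif, searched on both strands as TTTCCCGC, TTTGGCGC, TTTCGCGC and TTTGCCGC. The E2F1 window lies at chr20:33686386-33686635 on the minus strand and the E2F2 window at chr1:23531234-23531483 on the minus strand.
E2F1: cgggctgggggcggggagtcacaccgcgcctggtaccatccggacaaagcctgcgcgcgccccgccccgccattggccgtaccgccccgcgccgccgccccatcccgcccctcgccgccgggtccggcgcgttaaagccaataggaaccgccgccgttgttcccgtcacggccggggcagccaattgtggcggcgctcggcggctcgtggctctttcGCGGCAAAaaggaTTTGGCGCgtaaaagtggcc
E2F2: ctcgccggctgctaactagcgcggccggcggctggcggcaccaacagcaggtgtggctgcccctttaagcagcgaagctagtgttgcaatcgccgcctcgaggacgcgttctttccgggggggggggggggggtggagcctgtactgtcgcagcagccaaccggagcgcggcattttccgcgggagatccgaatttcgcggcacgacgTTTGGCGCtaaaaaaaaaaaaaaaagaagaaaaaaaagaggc
In E2F1 the matches began 33 (antisense) and 20 (sense) bases before the start, and in E2F2 the only match began 42 bases before it. Among all 35116 promoter windows of this length 2.79% held at least 1 match, and among all 27305 genes with a window 3.4% did. Of the 8 members with a window, E2F1, E2F2, E2F3 and TFDP1 held a match (E2F3 in 1 of its 2 windows), and E2F4, E2F6, E2F7 and TFDP2 held none of these letters. The E2F3 and TFDP1 matches are shown in stretches of 50 bases, at chr6:20401805-20401854 and chr13:113584612-113584661, both on the plus strand, because these members carry the motif too and neither was called in the comparisons below with all arrays.
E2F3: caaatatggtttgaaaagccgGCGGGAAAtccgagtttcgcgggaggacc
TFDP1: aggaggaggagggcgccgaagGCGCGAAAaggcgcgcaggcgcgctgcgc
A match is a string of letters and not a measured binding site. E2F5 and E2F8 were not among the promoter sequences used.

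E2F2 and E2F8 fell under Ento+AZD in both lines. E2F8 was 4.81-fold lower in SU-DHL-4 and 3.2-fold lower in DG-75, and E2F2 was 2.76-fold and 2.04-fold lower. E2F1, E2F7 and TFDP2 were lower in every same-numbered comparison but passed the threshold in neither line. E2F3, E2F4, E2F5 and TFDP1 were not called under any exposure. Calls required both a limma adjusted p below 0.05 and a log2 change of more than 1 in size, the study's thresholds, and by this rule 1.09% of all rows were lower under Ento+AZD for SU-DHL-4 and 0.708% for DG-75. The call of E2F8 is not an independent result, since the study named this gene from these arrays as well as from its RNA sequencing.

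**Figure D1:**
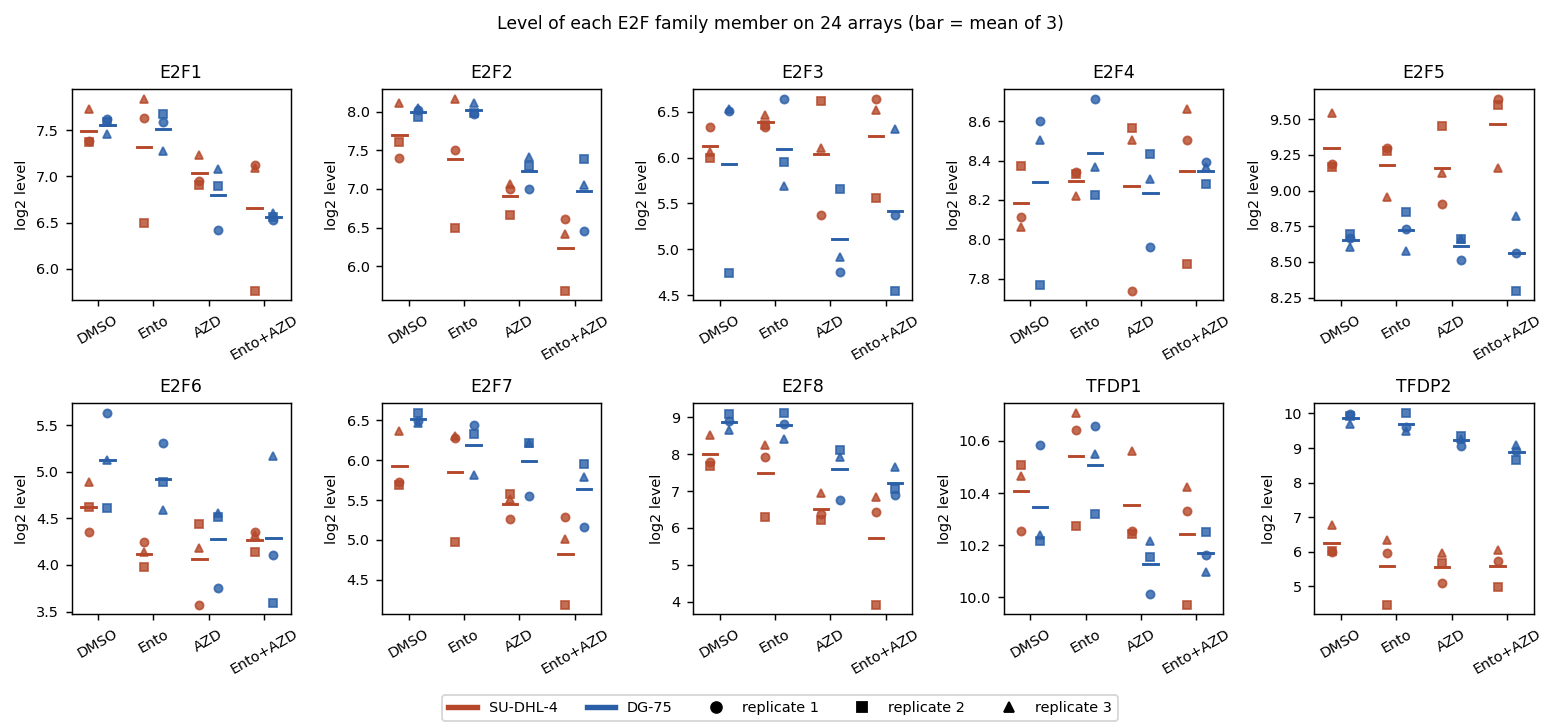
Log2 level of each E2F family member (y axis) in DMSO, Ento, AZD and Ento+AZD (x axis), with 1 point per array, the symbol giving the replicate number and the bar the mean of 3 arrays. E2F8 in SU-DHL-4 goes from a mean of 7.999 in DMSO to 5.73 in Ento+AZD, where replicate 2 lies apart at 3.92, and TFDP2 is separated between the lines in every treatment.

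E2F8, the atypical repressor, showed the strongest reduction. In SU-DHL-4 its log2 level was 7.78, 7.69 and 8.53 in DMSO (replicates 1, 2 and 3), 7.92, 6.30 and 8.26 in Ento, 6.38, 6.21 and 6.94 in AZD, and 6.43, 3.92 and 6.85 in Ento+AZD. All AZD and Ento+AZD samples lay below all DMSO samples. Under Ento+AZD this held for 16% of all rows, and the share under AZD is not given here. Replicate 2 was the lowest array in all 4 groups, by the widest margin in the Ento and Ento+AZD groups. The log2 change under Ento+AZD was −2.27 (SE 0.39, n = 3 per group, limma adjusted p = 0.012). Under AZD alone it was −1.49 (SE 0.39, limma adjusted p = 0.161), and under Ento alone −0.51 (SE 0.39, limma adjusted p = 0.757).
In DG-75 the E2F8 level was 8.90, 9.10 and 8.65 in DMSO, 8.82, 9.13 and 8.40 in Ento, 6.75, 8.11 and 7.92 in AZD, and 6.89, 7.07 and 7.66 in Ento+AZD. The Ento samples overlapped the DMSO samples, whereas both groups with AZD were below them. Under Ento+AZD, 14% of all rows lay below DMSO without overlap. The change under Ento+AZD was −1.68 (SE 0.30, limma adjusted p = 0.0215) and under AZD −1.29 (SE 0.30, limma adjusted p = 0.0872).

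E2F2, an activator with roles in lymphocyte proliferation, was the other member called in both lines. In SU-DHL-4 its level was 7.39, 7.60 and 8.11 in DMSO, 7.50, 6.50 and 8.17 in Ento, 7.002, 6.67 and 7.07 in AZD, and 6.62, 5.68 and 6.41 in Ento+AZD. All Ento+AZD samples lay below all DMSO and all AZD samples, and they overlapped with Ento only through the low Ento replicate 2. Of all rows, 16% were below DMSO without overlap under Ento+AZD. The change was −1.46 under Ento+AZD (SE 0.25, limma adjusted p = 0.012), and −0.79 under AZD (SE 0.25, limma adjusted p = 0.247).
In DG-75 the level was 8.02, 7.93 and 8.04 in DMSO, 7.97, 7.98 and 8.11 in Ento, 6.996, 7.30 and 7.41 in AZD, and 6.46, 7.39 and 7.05 in Ento+AZD. DMSO and Ento were close together and clearly above both AZD groups, which overlapped each other. Of all rows, 14% were below DMSO without overlap under Ento+AZD. The change was −1.03 under Ento+AZD (SE 0.18, limma adjusted p = 0.0215), and −0.76 under AZD (SE 0.18, limma adjusted p = 0.0965).

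The calls within a line depended on single arrays. In SU-DHL-4, E2F8 was no longer called without DMSO replicate 2 (−1.87, limma adjusted p = 0.094), and E2F2 without DMSO replicate 2, DMSO replicate 3, Ento+AZD replicate 2 or Ento+AZD replicate 3 (−1.23 to −1.45, limma adjusted p from 0.0566 to 0.094). Neither was called without all arrays of replicate number 3 (E2F8 −2.56, limma adjusted p = 0.102, and E2F2 −1.35, limma adjusted p = 0.131), and E2F2 was not called without replicate number 2 (−1.24, limma adjusted p = 0.0884). With the low replicate 2 arrays of Ento and Ento+AZD both omitted, an alternative chosen after their values were seen, E2F8 changed by −1.51 (limma adjusted p = 0.0138) and E2F2 by −1.27 (limma adjusted p = 0.0457), so both were still called. Without the replicate number in the model neither gene was called in SU-DHL-4 (−2.27, limma adjusted p = 0.15 for E2F8 and −1.46, limma adjusted p = 0.101 for E2F2), and 45 rows of the whole table were. In DG-75, E2F8 was called in only 1 of 6 fits without a single array, that without Ento+AZD replicate 3, and E2F2 in only 1, that without Ento+AZD replicate 2. In the other fits E2F8 changed by −1.43 to −1.86 (limma adjusted p from 0.0593 to 0.174) and E2F2 by −0.82 to −1.14 (limma adjusted p from 0.0542 to 0.174), and both calls were also lost without any one replicate number. The DG-75 call of E2F2 also ended after subtraction of each array's median (−0.94, limma adjusted p = 0.0346) and after quantile normalization (−0.90, limma adjusted p = 0.0368), in both cases by the fold change minimum.

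**Figure D2:**
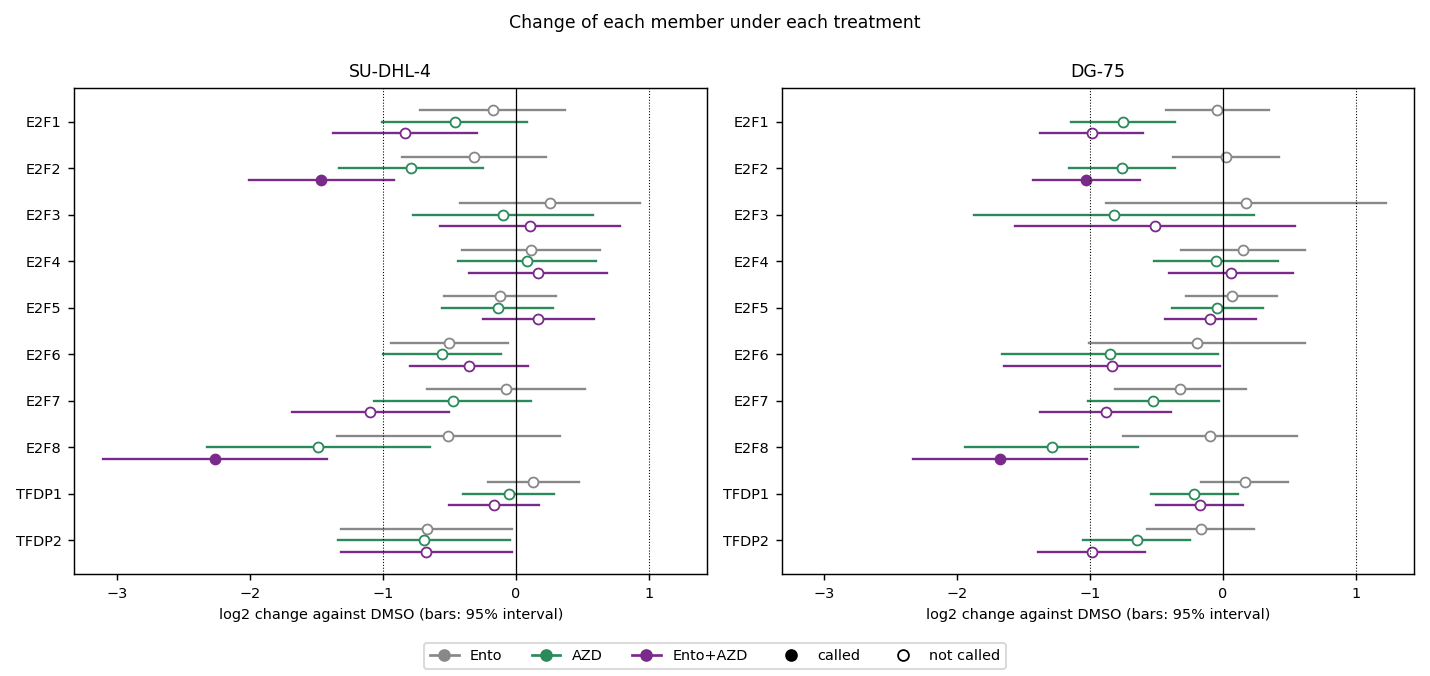
Log2 change against DMSO (x axis, bars are 95% intervals from limma) of each member under Ento, AZD and Ento+AZD in SU-DHL-4 and DG-75, with filled points for called changes and dotted lines at a log2 change of 1 in either direction. Filled points are E2F2 and E2F8 under Ento+AZD in both lines, and the intervals of E2F4, E2F5 and TFDP1 include 0 throughout. The 3 changes of a line share its DMSO arrays.

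E2F1, the activator also known for its part in apoptosis, was lower without being called. In DG-75 its level was 7.61, 7.59 and 7.46 in DMSO, 7.59, 7.67 and 7.27 in Ento, 6.41, 6.90 and 7.08 in AZD, and 6.52, 6.57 and 6.60 in Ento+AZD. The Ento+AZD samples lay close together. They were all below the DMSO samples, as were 14% of all rows. The change of −0.99 (SE 0.18) had a limma adjusted p of 0.0221 but stayed inside the fold change minimum, and 1.87% of all rows were lower by adjusted p alone in this comparison.
In SU-DHL-4 the E2F1 level was 7.38, 7.37 and 7.73 in DMSO and 7.12, 5.76 and 7.09 in Ento+AZD, a change of −0.84 (SE 0.25, limma adjusted p = 0.12). The groups did not overlap, and 16% of all rows were likewise lower without overlap. Replicate 2 of Ento+AZD lay more than 1 log2 unit below the others, and without both low arrays the change was −0.45 (limma adjusted p = 0.289).

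E2F7, the second atypical repressor, was at 5.73, 5.69 and 6.36 in DMSO and 5.29, 4.19 and 5.01 in Ento+AZD in SU-DHL-4. In DG-75 it was at 6.49, 6.60 and 6.46 in DMSO and 5.16, 5.96 and 5.79 in Ento+AZD. In both lines all Ento+AZD samples were below all DMSO samples, as were 16% and 14% of all rows in SU-DHL-4 and DG-75. The changes were −1.10 (SE 0.27, limma adjusted p = 0.0588) and −0.88 (SE 0.22, limma adjusted p = 0.0684). In SU-DHL-4 the same change of −1.10 was called in 4 alternatives. These were 1 fit of all arrays (limma adjusted p = 0.0285), only the compared treatments fitted (0.0176), low rows omitted (0.0315) and a trended robust prior (0.0192). E2F7 was called in 0 of 9 fits that left out an array or a replicate number (limma adjusted p from 0.0552 to 0.493). Without the low replicate 2 arrays of Ento and Ento+AZD it changed by −0.81 (limma adjusted p = 0.173).

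E2F3, the remaining activator, was not called in either line. Its level in SU-DHL-4 was 6.33, 5.996 and 6.06 in DMSO and 6.64, 5.56 and 6.52 in Ento+AZD, with overlapping groups and a change of 0.11 (SE 0.31, limma adjusted p = 0.927). In DG-75 it was 6.51, 4.74 and 6.53 in DMSO and 5.38, 4.55 and 6.32 in Ento+AZD, lower in 3 of 3 same-numbered comparisons, and replicate 2 was low in both groups. The change of −0.51 (95% interval −1.57 to 0.54) leaves room for a change past the threshold. Under AZD in DG-75 it was −0.82 (SE 0.48, limma adjusted p = 0.502), beside −0.75 for E2F1 and −0.76 for E2F2, whose SE was 0.18 each.

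The repressors E2F4 and E2F5 were close to level. The changes of E2F4 against DMSO ranged from −0.06 under AZD in DG-75 to 0.16 under Ento+AZD in SU-DHL-4, and those of E2F5 from −0.14 under AZD to 0.17 under Ento+AZD, both in SU-DHL-4. Their intervals under Ento+AZD were −0.35 to 0.68 and −0.25 to 0.59 in SU-DHL-4, and −0.41 to 0.53 and −0.44 to 0.25 in DG-75, so that none reached a log2 change of 1 in either direction.
E2F6, the Polycomb-linked repressor, had a negative change under each exposure, none of them called. In SU-DHL-4 it was at 4.35, 4.62 and 4.89 in DMSO, 4.25, 3.97 and 4.14 in Ento, 3.57, 4.44 and 4.18 in AZD, and 4.35, 4.14 and 4.32 in Ento+AZD. The changes were −0.50 under Ento, −0.56 under AZD and −0.35 under Ento+AZD (SE 0.20 each, limma adjusted p = 0.539, 0.325 and 0.491). In DG-75 they were −0.20, −0.85 and −0.84 (SE 0.37 each), and the Ento+AZD samples overlapped DMSO.

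TFDP1 and TFDP2 form the heterodimer with E2F1 to E2F6 that binds DNA. TFDP1 stayed between 9.97 and 10.7 in SU-DHL-4 and between 10.01 and 10.7 in DG-75, and its changes under Ento+AZD were −0.17 (SE 0.16) and −0.18 (SE 0.15). TFDP2 in DG-75 was at 9.99, 9.94 and 9.70 in DMSO, 9.61, 10.03 and 9.48 in Ento, 9.06, 9.36 and 9.25 in AZD, and 8.92, 8.64 and 9.10 in Ento+AZD. The AZD and Ento+AZD samples were all below the DMSO samples. Under Ento+AZD this held for 14% of all rows. The change under Ento+AZD was −0.99 (SE 0.18, limma adjusted p = 0.0244), just inside the fold change minimum. Without Ento+AZD replicate 3, TFDP2 (−1.16, limma adjusted p = 0.0297) and E2F1 (−1.02, limma adjusted p = 0.049) were both called in DG-75. The TFDP2 change in SU-DHL-4 was −0.67 (SE 0.30, limma adjusted p = 0.33).

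By class, 1 of 3 activators and 1 of 2 atypical members were called lower under Ento+AZD in each line, against 0 of 3 repressors and 0 of 2 dimerization partners. The median change of the classes was −0.84, 0.16, −1.68 and −0.42 for activators, repressors, atypical members and partners in SU-DHL-4, and −0.99, −0.10, −1.28 and −0.58 in DG-75. The median over all rows was −0.08 for SU-DHL-4 and −0.07 for DG-75. The classes hold 2 or 3 genes each, and a difference between them was not tested.

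The single agents called no member in either line. With AZD, 0 of 10 members were called by limma in SU-DHL-4, where 0.18% of all rows were lower, and 0 of 10 in DG-75, where the share was 0.164%. At an unadjusted p under 0.05 there were 4 (E2F2, E2F6, E2F8 and TFDP2) for SU-DHL-4 and 6 (E2F1, E2F2, E2F6, E2F7, E2F8 and TFDP2) for DG-75, a threshold that 11.5% and 13.8% of all rows passed. Ento called 0 of 10 in both lines, where 0.0508% and 0.00391% of rows were called, with 2 members (E2F6 and TFDP2) at an unadjusted p under 0.05 for SU-DHL-4 (8.59% of all rows) and 0 for DG-75 (2.81%). In DG-75 the changes under Ento lay between −0.32 (E2F7) and 0.17 (E2F3).

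Adding AZD to Ento was tested directly. In DG-75, E2F2 (−1.05, SE 0.18, limma adjusted p = 0.0246) and E2F8 (−1.58, SE 0.30, limma adjusted p = 0.0286) were lower under Ento+AZD than under Ento, as were 0.598% of all rows. Both calls were lost without Ento replicate 1, Ento replicate 2, Ento+AZD replicate 1 or Ento+AZD replicate 2 (−0.84 to −1.27 for E2F2, limma adjusted p from 0.0544 to 0.175, and −1.33 to −1.56 for E2F8, limma adjusted p from 0.102 to 0.198), and that of E2F2 also without Ento+AZD replicate 3 (−1.04, limma adjusted p = 0.0626). In the first 4 of these fits only 0 to 4 rows of the whole table were called. Both calls were also lost when only the Ento and Ento+AZD arrays were fitted (limma adjusted p = 0.177 for E2F2 and 0.159 for E2F8, with 0 rows of the table called), and that of E2F2 after subtraction of array medians (−0.98) or quantile normalization (−0.90). In SU-DHL-4 the same differences were −1.15 (SE 0.25, limma adjusted p = 0.0931) and −1.76 (SE 0.39, limma adjusted p = 0.0974), and 0 of 10 members were called, beside 0.0704% of rows lower, with 4 members and 9.67% of all rows at an unadjusted p under 0.05.
Adding Ento to AZD called 0 of 10 members in both lines by limma, beside 0.0274% of all SU-DHL-4 rows and 0% of all DG-75 rows. The unadjusted p was under 0.05 for 2 SU-DHL-4 members (E2F2 and E2F7, beside 7.03% of all rows) and for 0 DG-75 members (4.03%). E2F8 differed by −0.78 (95% interval −1.62 to 0.06) and −0.39 (95% interval −1.04 to 0.26), so a further reduction by Ento was not resolved by these arrays. The SU-DHL-4 value was −0.17 without Ento+AZD replicate 2, −0.38 without AZD replicate 2 and −0.02 without replicate 2 of both Ento and Ento+AZD. Other omissions enlarged it. Over the fits that left out an array or a replicate number it lay between −1.19 and −0.02.

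The departure of Ento+AZD from the sum of both single-agent changes was called for 0 members and for 0 rows in both lines. For E2F8 it was −0.27 (SE 0.55) for SU-DHL-4 and −0.29 (SE 0.42) for DG-75, and for E2F2 −0.36 (SE 0.35) and −0.29 (SE 0.26). Only E2F6 in SU-DHL-4 had an unadjusted p under 0.05 (0.70, SE 0.29, limma adjusted p = 0.96), as did 4.99% of all rows.

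With both lines in 1 model, 5 members were lower under Ento+AZD by adjusted p alone, as were 7.03% of all rows. All 5, picked by that adjusted p, were lower in 6 of 6 same-numbered comparisons, which is not separate support. They were E2F1 (−0.91, SE 0.16, limma adjusted p = 0.00079), E2F2 (−1.25, SE 0.16, 7.391e-05), E2F7 (−0.99, SE 0.18, 0.00141), E2F8 (−1.97, SE 0.26, 7.495e-05) and TFDP2 (−0.83, SE 0.20, 0.00997). E2F2 and E2F8 also passed the fold change minimum, beside 0.813% of all rows, and they did so in each of the 15 fits that left out an array or a replicate number.
Under AZD, E2F8 was called (−1.39, SE 0.26, limma adjusted p = 0.00486), beside 0.25% of rows, and it was lower in 6 of 6 comparisons. E2F1 (−0.61, limma adjusted p = 0.0308) and E2F2 (−0.77, limma adjusted p = 0.00911) passed by adjusted p alone, beside 4.29% of rows. E2F8 was no longer called under AZD without replicate number 1 (−1.20, limma adjusted p = 0.155) or 3 (−1.503, limma adjusted p = 0.0818). Without replicate number 2, E2F3 was called as well (−1.07, limma adjusted p = 0.0403). Under Ento 0 of 10 members were called, beside 0.00782% of rows, and TFDP2 alone had an unadjusted p under 0.05 (−0.42, SE 0.20), as did 6.36% of all rows.

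The lines were then compared. The response of no member was called as different between SU-DHL-4 and DG-75 under Ento, AZD or Ento+AZD, for which 0.00782%, 0% and 0.0352% of all rows were called, and no member had an unadjusted p under 0.05. For E2F8 under Ento+AZD the difference, taken as SU-DHL-4 less DG-75, was −0.59 (95% interval −1.74 to 0.56), and for E2F2 it was −0.43 (95% interval −1.13 to 0.26).

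In DMSO, TFDP2 set the lines apart. Its level of 5.999, 6.01 and 6.78 in SU-DHL-4 was far below the 9.99, 9.94 and 9.70 in DG-75, with no overlap. The difference of −3.61 (SE 0.33, limma adjusted p = 3.851e-08) equals a 12.2-fold lower level, and 4.13% of all rows were lower in SU-DHL-4 by this rule. It was called in 9 of 9 fits that left out an array or a replicate number. TFDP1 did not move the other way, with a difference of 0.06 (SE 0.15).
E2F5 was higher in SU-DHL-4 (9.19, 9.16 and 9.55) than in DG-75 (8.67, 8.70 and 8.60), a difference of 0.64 (SE 0.18, limma adjusted p = 0.0123) that passed by adjusted p alone, as did 7.91% of rows that were higher. The E2F8 difference of −0.89 (SE 0.51, limma adjusted p = 0.288) did not pass.

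**Figure D3:**
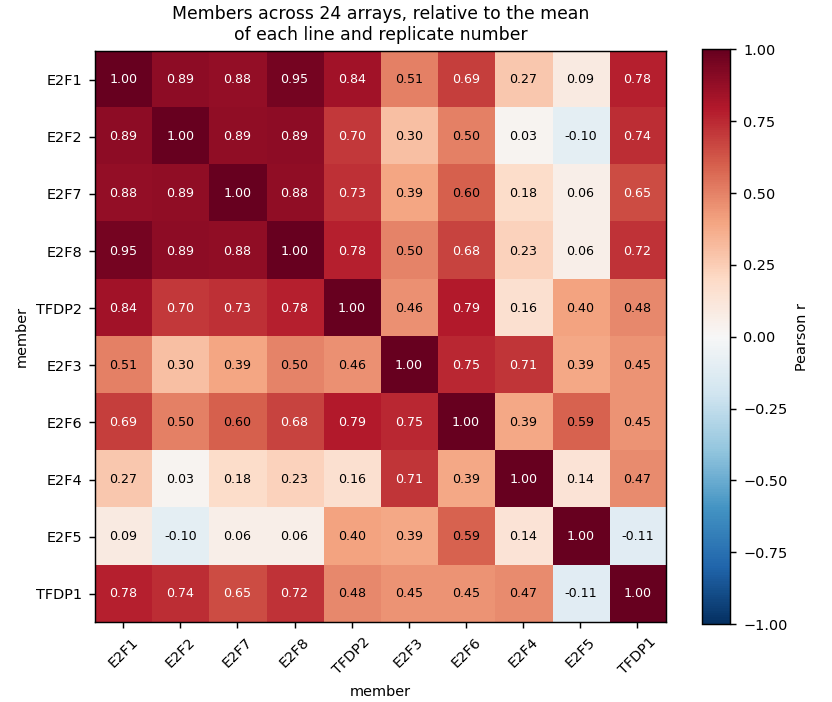
Pearson correlation between members over 24 arrays after subtraction of the mean of each line and replicate number, with both axes listing the members and colours from −1 (blue) to 1 (red). E2F1, E2F2, E2F7 and E2F8 form a block with correlations from 0.882 to 0.955, and E2F4 and E2F5 stand outside it.

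Across arrays, E2F1 and E2F8 varied most closely together (r = 0.955 over 24 arrays, 0.955 within SU-DHL-4 and 0.979 within DG-75). These values describe differences from the mean of each line and replicate number, they share treatments and arrays, and both low SU-DHL-4 arrays contribute to them. E2F2 was correlated at 0.893 with E2F1 and with E2F8, and E2F7 at 0.882 with E2F1. E2F4 was at 0.229 with E2F8. E2F5 was at 0.0582 with E2F8 over both lines, with opposite signs within them (−0.237 for SU-DHL-4, 0.635 for DG-75).
Among 12607 rows above the median level, those most like E2F8 were PRC1 (r = 0.987), NEK2 and KIF20A (0.985 each), which act in mitosis and cytokinesis. For E2F2 they were CCNA2, the S and G2 phase cyclin (r = 0.971), the condensin subunit NCAPG2 (0.970) and the spindle protein NUSAP1 (0.968).

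Known targets of the family were then counted. Of 45 G1/S targets, genes for replication origins, nucleotide supply and DNA repair, 24 were called lower after Ento+AZD for SU-DHL-4 and 12 for DG-75, with 0 higher, and their median change was −1.13 and −0.85. In SU-DHL-4 these included CHAF1B, a subunit of the chromatin assembly factor (−2.05, SE 0.29, limma adjusted p = 0.00567), and the GINS subunit GINS2 (−1.73, SE 0.23, same adjusted p). The study also named CHAF1B, from these arrays and from its RNA sequencing. Further called targets were the primase PRIM1 (−1.48), the phosphatase CDC25A (−1.46) and the origin licensing factor CDT1 (−1.41). In DG-75 they included the helicase cofactors CDC45 (−1.30, SE 0.19, limma adjusted p = 0.0162) and GINS1 (−1.16), CHAF1B (−1.20), the checkpoint kinase CHEK1 (−1.11) and the origin subunit ORC1 (−1.04).
Of 23 G2/M genes, 16 were called lower for SU-DHL-4 (1.09% of all rows) and 5 for DG-75 (0.708%). Their median change was −1.19 and −0.86. The mitotic kinases CDK1 (−1.60 and −1.27) and AURKA (−1.33 and −1.05) were called in both lines. Over the fits that left out an array or a replicate number, the 2 counts ranged from 0 to 26 and 0 to 19 for SU-DHL-4, and from 0 to 14 and 0 to 4 for DG-75. In SU-DHL-4 they were 4 and 1 without DMSO replicate 2 (medians −0.92 and −0.94, 0.192% of all rows), 6 and 0 without Ento+AZD replicate 2 (−0.89 and −0.92, 0.266%), 14 and 5 without DMSO replicate 3 (−1.25 and −1.28, 0.59%), and 14 and 8 without Ento+AZD replicate 3 (−1.23 and −1.34, 0.575%). Without replicate number 3 both counts and the share of all rows were 0, at medians of −1.25 and −1.37. Without replicate number 2 they were 4 and 1 (medians −0.71 and −0.82, 0.199% of all rows). Without replicate number 1 they were 21 and 10 (−1.37 and −1.43, 0.981%). In DG-75 both counts and the share were 0 without DMSO replicate 1 (−0.70 and −0.76) or Ento+AZD replicate 1 (−0.76 and −0.78). They were 1 and 1 without DMSO replicate 3 (−0.87 and −0.86, 0.133% of all rows), 5 and 3 without Ento+AZD replicate 2 (−0.89 and −0.98, 0.149%), and 9 and 2 without DMSO replicate 2 (−0.93 and −1.01, 0.25%). Without replicate number 3 the DG-75 counts were 0 and 0 (−0.88 and −0.84) beside 0.152% of all rows, and without replicate number 1 or 2 the counts and the share were 0. Without the replicate number in the model the medians were the same and the counts were 1 and 0 in SU-DHL-4 (0.156% of all rows), and 12 and 5 in DG-75 (0.712%). With both low arrays omitted the SU-DHL-4 counts were 12 and 4, the medians −0.81 and −0.86 and the share of all rows 0.508%.

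**Figure D4:**
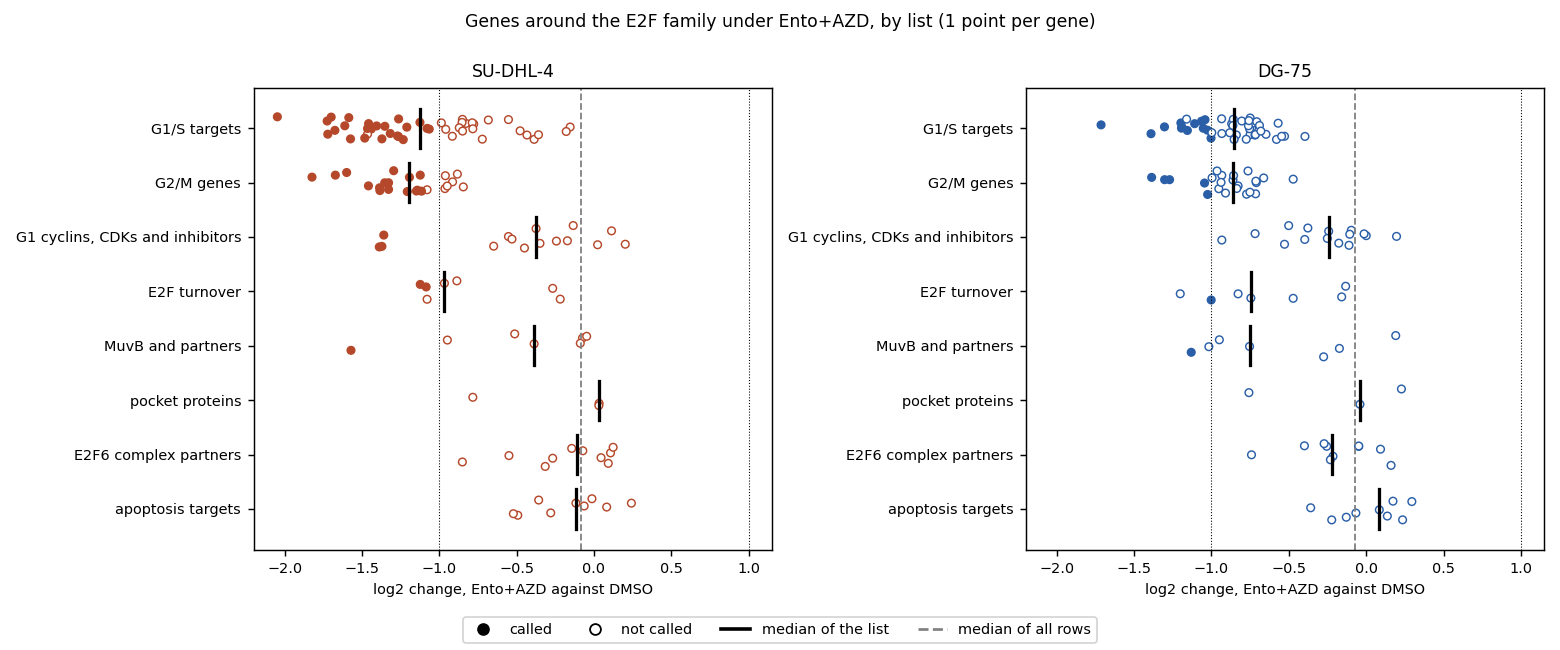
Log2 change under Ento+AZD against DMSO (x axis) of each gene in 8 lists of genes around the E2F family (y axis), with filled points for called genes, black bars for list medians and a dashed line for the median of all rows. G1/S targets and G2/M genes lie to the left of 0 without exception in both lines, while apoptosis targets and E2F6 complex partners lie around the median of all rows.

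Averaged over the 45 G1/S targets, the level per array in SU-DHL-4 was 8.09, 8.29 and 8.70 in DMSO, 8.37, 7.51 and 8.68 in Ento, 7.72, 7.53 and 8.15 in AZD, and 7.48, 6.51 and 7.81 in Ento+AZD. Replicate 2 was the lowest array of Ento, AZD and Ento+AZD here, and replicate 2 of Ento and of Ento+AZD was also the lowest for E2F1, E2F2, E2F7, E2F8 and TFDP2. In DG-75 the same mean was 8.88, 8.69 and 8.77 in DMSO, 8.86, 8.82 and 8.66 in Ento, 7.75, 8.29 and 8.21 in AZD, and 7.71, 7.99 and 7.99 in Ento+AZD. Both groups with AZD were below DMSO and Ento in DG-75. Under AZD alone 0 and 1 targets were called in SU-DHL-4 and DG-75 (ORC1, −1.06, SE 0.16, limma adjusted p = 0.0471), the latter count being 0 in each fit that left out an array or a replicate number. The median changes were −0.57 and −0.72, and 0.18% and 0.164% of all rows were called lower. Over the fits that left out an array or a replicate number, the median lay between −0.757 and −0.298 in SU-DHL-4. In DG-75 it lay between −0.82 and −0.475.
Of the 39 G1/S targets with a promoter window, 16 (41%) held an exact motif, and of the 18 G2/M genes 3 (16.7%), beside 3.4% of all 27305 genes with a window.

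The pocket proteins, which bind and silence the E2F factors, were not called. RB1 changed by 0.03 (SE 0.14) for SU-DHL-4 and 0.23 (SE 0.13) for DG-75 under Ento+AZD, and RBL2 by 0.03 (SE 0.16) and −0.04 (SE 0.24). RBL1, itself an E2F target, changed by −0.78 (SE 0.19, limma adjusted p = 0.0547) and −0.76 (SE 0.18, limma adjusted p = 0.0526). In DMSO, the RB1 level of SU-DHL-4 exceeded that of DG-75 by 1.06 (SE 0.12, limma adjusted p = 1.371e-06).
In the MuvB complex and its partners, which take over from E2F in G2, FOXM1 changed by −1.57 (SE 0.25, limma adjusted p = 0.00963) in SU-DHL-4 and by −0.95 (SE 0.17, limma adjusted p = 0.0221) in DG-75, where only the fold change minimum was missed. LIN9 was called in DG-75 (−1.13, SE 0.23, limma adjusted p = 0.0334) and was at −0.95 (limma adjusted p = 0.178) in SU-DHL-4. LIN54 was at −0.51 and −1.02, MYBL2 at −0.39 and −0.75, LIN37 at −0.07 and 0.19, LIN52 at −0.09 and −0.28 and RBBP4 at −0.05 and −0.17 in SU-DHL-4 and DG-75, none of them called.

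Among 15 G1 cyclins, kinases and inhibitors, 3 were called lower under Ento+AZD for SU-DHL-4 (1.09% of all rows) and 0 for DG-75 (0.708%). They were the kinase inhibitor CDKN1B (−1.39, SE 0.18, limma adjusted p = 0.00478), the kinase CDK2 (−1.36) and its partner cyclin CCNE2 (−1.37). CDKN1B counteracts the kinases that release E2F, unlike the other two. It was also the only gene of these lists that AZD alone called in SU-DHL-4 (−1.37, SE 0.18, limma adjusted p = 0.0312). Of 7 genes that control E2F protein turnover, 2 were called lower in SU-DHL-4 (1.09% of all rows) and 1 in DG-75 (0.708%). They were the F-box proteins SKP2 (−1.09) and CCNF (−1.12) in SU-DHL-4 and CKS1B (−1.002) in DG-75. CCNE2 and CCNF are also counted above, among the G1/S targets and the G2/M genes, respectively.
Of 9 apoptosis genes tied to E2F1, 0 were called by limma in either line, with median changes of −0.12 and 0.09. Of 10 partners of E2F6 in its repressor complexes 0 were called, with PCGF6 at −0.85 (limma adjusted p = 0.0894) and −0.74 (limma adjusted p = 0.222).

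The 24 arrays had medians between 4.89 and 5.14, and replicates correlated at 0.981 to 0.992 across rows. The log2 values of 7 B-cell markers (among them MS4A1, CD79A and PAX5) summed to 69.1 to 73.4 in SU-DHL-4 and 59.2 to 65.6 in DG-75, and those of 5 T-cell, 4 myeloid and 4 epithelial markers to 16.0 to 18.5, 16.4 to 18.9 and 14.5 to 16.4. In DG-75 the B-cell sum was 62.6 to 65.6 under Ento+AZD and 62.1 to 63.1 under AZD against 59.2 to 60.9 in DMSO, with 1 of 7 markers (CD79B) called higher under Ento+AZD, the T-cell sum was 16.0 to 16.4 against 16.7 to 18.1, and the epithelial sum 14.6 to 14.8 against 15.4 to 16.1. In SU-DHL-4 the T-cell sum was 16.0 to 17.1 under Ento against 17.2 to 18.5 in DMSO. The part of these shifts in the E2F family values was not tested. Subtraction of each array's median raised all Ento+AZD changes against DMSO by 0.13 for SU-DHL-4 and 0.09 for DG-75, and those against Ento by 0.01 and 0.07. By the shift against DMSO, the called changes of E2F2, AURKA, ORC1 and CKS1B in DG-75 fall inside the fold change minimum. The same holds for SKP2 and CCNF in SU-DHL-4.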

How the data were processed

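Total RNA of SU-DHL-4 and DG-75 was measured on 24 Clariom D arrays. The authors normalized the arrays by robust multi-array average (RMA) with limma, mapped probes to genes with affycoretools and deposited 1 table of log2 values in rows named by gene symbol, in which some symbols have several rows. The versions and the genome build are not given in the sources used here. RMA has no detection call, so low log2 values cannot be split into expressed and not expressed, and the number of arrays, 3 per group, limits the precision. All 24 columns were matched to samples by name, and 0 were unused. Groups and replicate numbers came from the labels.

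Moderated linear models came from limma 3.58.1 under R 4.3.3. Each line had its own model with 4 treatments and the replicate number as a batch term, since the study's methods use a batch term without saying what it was. Comparisons over both lines and of responses between lines used replicate number within line, and DMSO levels of the lines were compared with replicate number shared by the lines. Benjamini-Hochberg adjustment covered the 25575 rows of each comparison. The calculation was tested on simulated data. Where nothing says that samples were separate cultures beyond the word biological, p-values measure the spread between these samples. Checked over all rows, same-numbered arrays of a line correlated in their deviations from group means at medians of 0.00936, 0.147 and 0.207 in SU-DHL-4 and 0.0405, 0.0257 and 0.0691 in DG-75, for numbers 1, 2 and 3. Arrays of different numbers had medians of −0.0694 (highest 0.108) and −0.0138 (highest 0.362). In SU-DHL-4 all 6 pairs of number 3 lay between 0.146 and 0.263, but pairs of number 1 went down to −0.111 and in DG-75 pairs went down to −0.355, so that not every same-numbered pair correlated.

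Named genes were all members, genes of the pocket protein and MuvB lists, up to 5 called genes per other list with the smallest adjusted p (or up to 3 with the largest change), and the 3 symbols most correlated with each called member. Values of some genes that this rule selects are not reported here. The members and lists were chosen with earlier results of these data known. The lists overlap, and CCNE1, CCNE2, RBL1, MYBL2, CDC20 and CCNF are counted in each list that holds them. Promoter sequences are from RefSeq (GRCh38.p14). Alternatives were dropping the replicate number, fitting all arrays at once or only the treatments compared, omission of low rows, other scalings, a trended robust prior, no fold change minimum, averaged rows and omission of arrays.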

Additional observations from a re-analysis of the deposited data

How the results depend on the processing

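The limits of the calls are the 3 arrays per group and the absence of a background value. E2F6 has no value where rows under the median level were omitted. Without the replicate block, 0 instead of 2 members were called for Ento+AZD against DMSO in SU-DHL-4, and no other count of members changed by more than 1.5 times under that fit. The cause was not tested. For the same comparison E2F7 was called in 4 alternatives, with a count of 3 instead of 2. Row counts in brackets below are all rows of the table called in the same fit, in either direction. In SU-DHL-4, AZD called 1 member (E2F8) with a trended robust prior (105 rows). Ento+AZD against Ento called 2 with that prior (107 rows) and 2 in 1 fit of all arrays (90 rows). In DG-75, AZD called 1 (E2F8) with low rows omitted (98 of the rows kept) and 1 with the trended robust prior (155 rows). Ento+AZD against DMSO in DG-75 called 1 (E2F8) after quantile normalization (173 rows) and 1 (E2F8) after subtraction of array medians (148 rows). By adjusted p alone it called 4 (611 rows). Ento+AZD against Ento in DG-75 called 0 when only both treatments were fitted (0 rows). It called 1 after quantile normalization (124 rows) and 1 after subtraction of array medians (103 rows). By adjusted p alone, 3 members passed for AZD (1191 rows) and 5 for Ento+AZD over both lines (2172 rows), and 2 for the DMSO levels (4626 rows). Replicate 2 of Ento and of Ento+AZD in SU-DHL-4 was also omitted, an alternative chosen after their values were seen. AZD against DMSO then called 1 (89 rows) and Ento+AZD against Ento called 1 (8 rows). No called change was reversed in direction in any alternative.

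Over the fits that left out an array or a replicate number, the count ranged from 0 to 1 for AZD in SU-DHL-4, from 0 to 2 for Ento+AZD in SU-DHL-4, from 0 to 3 for Ento+AZD against DMSO and against Ento in DG-75, from 0 to 2 for AZD and from 2 to 4 for Ento+AZD over both lines. For the other 13 comparisons the count was the same in all these fits.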
